A study of Caenorhabditis elegans with 43 samples.

Results

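Chromatin immunoprecipitation sequencing (ChIP-seq) with an antibody against the Flag epitope was compared between *snpc-1.3::3xflag* worms and N2 worms over the whole genome of *Caenorhabditis elegans*. The *snpc-1.3::3xflag* strain carries snpc-1.3(xk32), in which the Flag tag was inserted into the endogenous gene on chromosome V, and N2 is the wild-type strain without a tag. Both were whole worms fed HB101 bacteria in liquid culture at 20°C and taken at the L4 stage (48 hr), so the tissue in which a signal arose is not resolved, and fewer bound cells and less binding per cell cannot be told apart. Each genotype had an IP library and an input library in each of 2 replicates, 8 of the 43 samples of the series. A later paragraph also uses small RNA libraries of wild-type and snpc-1.3(lof) worms at 48 hr and 20°C. The lof allele has an early stop codon in snpc-1.3. The unit compared was a 1 kb bin of the WBcel235 genome, and the measure was IP over input in *snpc-1.3::3xflag* worms divided by IP over input in N2 worms, on the log2 scale and within a replicate. The rule kept bins listed for both genotypes of a replicate, which gave 25213 bins in replicate 1 and 26052 in replicate 2 (14 of each mitochondrial), beside 100275 bins on the 6 nuclear chromosomes. Listed for all 4 pairs of IP and input were 17306 bins, 14 of them mitochondrial, and these entered the count test. A bin was listed only where its IP coverage exceeded a constant of the library (10.538 and 10.4775 in CPM, the count scaled to the total of the library, in the 2 *snpc-1.3::3xflag* IPs, 10.4615 and 10.5063 CPM in the 2 N2 IPs), so the comparison starts from regions with coverage and a bin without signal in N2 often dropped out of it. The library totals were 18530235 to 24896703 for IPs and 38330920 to 44953489 for inputs, and a listed bin had at least 194 counts in its IP and 137 in its input. The labels number the replicates without saying whether they were separate cultures, so p-values speak only of these samples. Those from edgeR rest largely on a spread shared by all tested bins, near that of counting alone (common dispersion 9.77e-05).

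The piRNAs of the worm are germline small RNAs that are bound by the Argonaute protein PRG-1 and direct the silencing of foreign and self transcripts. Each is transcribed from its own short gene, most of these genes lie in a pair of clusters on chromosome IV, and many have upstream of them the Ruby motif, of which GTTTCA is the core. SNPC-1.3 is a paralogue of a subunit of SNAPc, the complex that activates small nuclear RNA (snRNA) genes and in animals binds a proximal sequence element upstream of them. Genes of transfer RNAs (tRNAs), by contrast, are classically transcribed from internal promoter elements without SNAPc. Here bases 13500001 to 17200000 of chromosome IV are called the big cluster and bases 4500001 to 7000000 the small cluster. The annotation placed 11388 of 15363 piRNA genes in the big cluster, 2816 in the small cluster, 510 elsewhere on chromosome IV and 649 on the other chromosomes.

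The sequences around which the results are ordered were read from the WBcel235 genome. For 60 nt upstream of a piRNA gene together with its 21 nt, with the GTTTCA core in capitals, the examples are a piRNA examined singly in the study (21ur-1258, chromosome IV 14392563 to 14392643, plus strand), 2 piRNAs of the highest tested bin of the big cluster (21ur-3939, IV 16382663 to 16382743, and 21ur-5331, IV 16382837 to 16382917, both minus strand), both piRNAs of the highest tested bin of the small cluster (21ur-5229, IV 5967029 to 5967109, plus strand, and 21ur-3644, IV 5967703 to 5967783, minus strand) and 3 of the 4 piRNAs of the highest bin outside the clusters (21ur-8563, IV 17211559 to 17211639, 21ur-6472, IV 17211725 to 17211805, and 21ur-10444, IV 17211175 to 17211255, all minus strand). The last of them has no GTTTCA in this window. Not shown from the big cluster bin are 21ur-9329, whose window overlaps that of 21ur-5331, and 21ur-15176, which has no GTTTCA there.
21ur-1258: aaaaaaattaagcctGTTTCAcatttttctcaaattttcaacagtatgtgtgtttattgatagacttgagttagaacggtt
21ur-3939: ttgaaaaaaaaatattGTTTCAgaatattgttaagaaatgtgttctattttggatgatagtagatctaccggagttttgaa
21ur-5331: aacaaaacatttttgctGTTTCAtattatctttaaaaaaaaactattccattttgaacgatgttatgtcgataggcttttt
21ur-5229: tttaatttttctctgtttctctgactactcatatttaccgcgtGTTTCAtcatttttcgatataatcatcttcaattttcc
21ur-3644: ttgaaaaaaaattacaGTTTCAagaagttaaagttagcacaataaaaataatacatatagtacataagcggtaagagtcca
21ur-8563: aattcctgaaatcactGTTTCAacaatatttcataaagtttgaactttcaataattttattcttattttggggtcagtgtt
21ur-6472: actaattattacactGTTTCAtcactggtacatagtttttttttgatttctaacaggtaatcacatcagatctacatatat
21ur-10444: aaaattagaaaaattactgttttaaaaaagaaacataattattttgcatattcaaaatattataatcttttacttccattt
GTTTCA was found on either strand of the 60 nt upstream of 66.0% of the 14714 piRNA genes of chromosome IV (64.7% on the strand of the piRNA), of 33.3% of the piRNA genes of other chromosomes and of 6.89% of 19973 protein-coding genes. As a hexamer it occurred in 65.9% of all 1 kb bins.

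Outside the clusters, the sequences are those upstream of non-coding RNA genes whose bins were higher in *snpc-1.3::3xflag* worms. Given are 80 nt upstream of 8 snRNA genes (sls-2.5, III 7140554 to 7140633, minus strand; sls-2.14, III 11090524 to 11090603, minus; sls-2.15, III 11090930 to 11091009, plus; sls-2.8, III 12250385 to 12250464, plus; F42C5.12, IV 7316652 to 7316731, plus; C53D6.12, IV 9001423 to 9001502, minus; F38E11.11, IV 9444562 to 9444641, plus; ZK897.3, IV 12786049 to 12786128, plus), then 80 nt upstream of 3 small nucleolar RNA (snoRNA) genes (C16D9.11, V 8228970 to 8229049, minus; T26A8.6, IV 8428740 to 8428819, minus; F54F11.6, II 13521221 to 13521300, plus) and 80 nt of a bin with no annotated gene (IV 991198 to 991277, plus). Capitals mark GCGNAACC and, where it follows after 7 nt, TGTC, a string written down after these sequences had been seen. The other 3 higher snoRNA bins do not have it upstream of the gene and are not shown.
sls-2.5: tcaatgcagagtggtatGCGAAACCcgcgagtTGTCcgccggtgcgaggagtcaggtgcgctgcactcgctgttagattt
sls-2.14: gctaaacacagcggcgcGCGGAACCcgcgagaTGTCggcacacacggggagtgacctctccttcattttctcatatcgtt
sls-2.15: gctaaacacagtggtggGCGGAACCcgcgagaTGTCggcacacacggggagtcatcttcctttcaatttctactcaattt
sls-2.8: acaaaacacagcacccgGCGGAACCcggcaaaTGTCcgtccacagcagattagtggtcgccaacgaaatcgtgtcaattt
F42C5.12: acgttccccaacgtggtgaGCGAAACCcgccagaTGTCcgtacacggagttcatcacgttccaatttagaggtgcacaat
C53D6.12: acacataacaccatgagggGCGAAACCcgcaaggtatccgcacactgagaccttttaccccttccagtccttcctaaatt
F38E11.11: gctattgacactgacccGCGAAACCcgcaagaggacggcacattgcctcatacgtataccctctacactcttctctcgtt
ZK897.3: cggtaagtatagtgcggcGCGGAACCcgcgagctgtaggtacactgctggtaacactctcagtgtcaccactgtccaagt
C16D9.11: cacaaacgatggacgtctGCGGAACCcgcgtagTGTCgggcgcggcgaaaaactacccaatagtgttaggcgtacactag
T26A8.6: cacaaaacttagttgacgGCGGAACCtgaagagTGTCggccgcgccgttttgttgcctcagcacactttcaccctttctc
F54F11.6: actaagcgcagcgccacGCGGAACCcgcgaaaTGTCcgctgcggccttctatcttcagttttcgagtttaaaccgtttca
intergenic bin: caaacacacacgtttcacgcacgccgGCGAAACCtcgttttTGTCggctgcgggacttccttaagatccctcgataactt

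SNPC-1.3::3xFlag signal was concentrated in both piRNA clusters. In the big cluster, the median IP over input was 1.74 and 1.76 in *snpc-1.3::3xflag* worms (replicates 1 and 2), against 1.03 and 1.08 in N2 worms, and the median log2 ratio of the genotypes was 0.74 over 981 bins and 0.66 over 764 bins. In the small cluster, IP over input was 1.26 and 1.23 in *snpc-1.3::3xflag* worms, against 1.05 and 1.06 in N2 worms, with median log2 ratios of 0.24 (942 bins) and 0.18 (834 bins). Elsewhere on chromosome IV the median log2 ratios were -0.03 and -0.02 (3458 and 3351 bins), and on the other chromosomes they were -0.04 and -0.04 (19818 and 21089 bins). The inputs of the genotypes differed little in these regions, with median log2 ratios of input within 0.02 of 0, although within the big cluster single bins varied more between the inputs of the genotypes (chi-square per degree of freedom 1.42 to 1.61) than between inputs of one genotype (0.74 and 0.85).

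**Figure D1:**
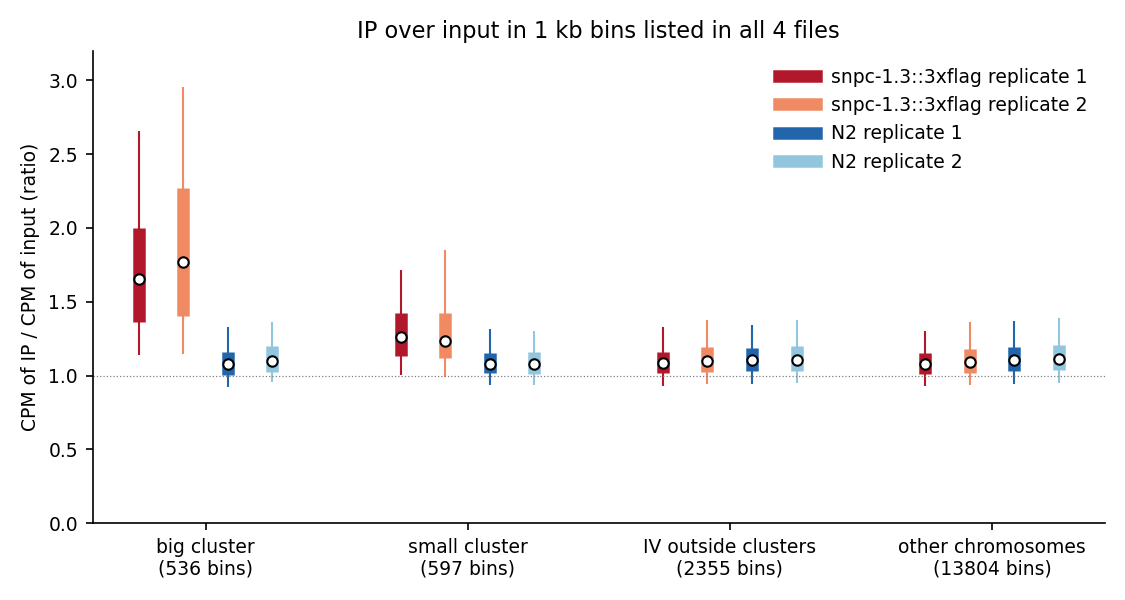
IP over input (CPM of IP divided by CPM of input, linear axis) in the bins listed for all 4 pairs, by region, with both *snpc-1.3::3xflag* libraries left of both N2 libraries. Points are medians over bins, thick bars quartiles and thin bars the 5th to 95th percentile. In the big cluster the medians are 1.65 and 1.77 in *snpc-1.3::3xflag* worms, against 1.08 and 1.1 in N2 worms, and on the other chromosomes 1.07 and 1.09 against 1.11 and 1.11.

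Set against the rest of chromosome IV, bins of both clusters together had a log2 ratio higher by 0.41 ± 0.06 (SD, n = 2 replicates, 0.45 and 0.36). In single libraries, the median log2 IP over input inside minus outside was 0.42 and 0.37 in *snpc-1.3::3xflag* worms, against -0.05 and -0.03 in N2 worms, so the genotypes did not overlap. With 2 libraries against 2, the exact two-sided permutation test gave p = 0.333, the smallest value it can give in this design. The small cluster stood below the big cluster by 0.49 on the log2 scale (difference -0.49 ± 0.02, SD, n = 2 replicates). By library, small minus big was -0.47 and -0.52 in *snpc-1.3::3xflag* worms, against 0.03 and -0.02 in N2 worms (exact permutation p = 0.333, two-sided). Across bins present in both replicates, the log2 ratios of replicates 1 and 2 correlated with r = 0.89 in the big cluster (536 bins) and 0.72 in the small cluster (597 bins), but with 0.27 elsewhere on chromosome IV (2355 bins) and 0.09 on the other chromosomes (13804 bins). These are descriptions across bins of the same libraries, and neighbouring bins share reads.

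Bin by bin, 587 of 17306 tested bins (3.39%) were higher in *snpc-1.3::3xflag* worms and 27 (0.156%) were lower (edgeR quasi-likelihood test on the counts of IP and input, Benjamini-Hochberg adjusted p of at most 0.05). Of the higher bins, 377 were among the 536 tested in the big cluster (70.3%) and 167 among the 597 tested in the small cluster (28.0%), and no cluster bin was lower (1 lower at an unadjusted p under 0.05 by edgeR, 0 by DESeq2). Outside the clusters 43 of 16159 tested bins were higher (0.266%), 30 of 2355 on chromosome IV and 13 of 13804 on the other chromosomes. All 587 higher bins had a log2 ratio above 0 in both replicates, as is likely for bins chosen by a test on the same counts. In the big cluster the 2 *snpc-1.3::3xflag* IPs varied more than counting predicts. Their chi-square per degree of freedom was 2.19, against 0.76 for the 2 N2 IPs. The count outside the clusters was the less stable one: it was 14 without *snpc-1.3::3xflag* replicate 2, 25 without N2 replicate 1, 22 without N2 replicate 2 and 8 with DESeq2, which called 280 of the 544 cluster bins. A log2 ratio of at least 1 in both replicates was reached by 86 bins of the big cluster, 3 of the small cluster and none outside the clusters, which is 0.515% of the nuclear bins tested. The list of sites outside the clusters by that rule is therefore empty, but only just: the highest bin there had 0.9997 in replicate 1 and 1.19 in replicate 2, and it passed where nothing was added to the counts. The 43 bins described below were named after their values had been seen.

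Bins that were listed for both *snpc-1.3::3xflag* IPs and neither N2 IP could not be compared as a ratio. They were set apart by the listing itself, so their excess over N2 is in part fixed by how they were chosen, and their values are a description that adds no support to the comparison above. They numbered 1961 in the big cluster (53.0% of its 3700 bins), 705 in the small cluster (28.2% of 2500), 192 elsewhere on chromosome IV (1.70% of 11294) and 502 on the other chromosomes (0.606% of 82781). In the big cluster their median IP was 19.6 and 21.4 CPM in *snpc-1.3::3xflag* worms, while in N2 worms they lay at or under the listing constant. Of these bins, 1531 in the big cluster and 111 in the small cluster held at least 1.5 times the N2 constant in both replicates. So did 17 elsewhere on chromosome IV, all beyond the right edge of the big cluster, and none on the other chromosomes. The highest, IV 14883001 to 14884000 in the gene eps-8 with 6 piRNA genes, had 34.7 and 36.7 CPM in the *snpc-1.3::3xflag* IPs, at least 3.32 and 3.49 times the N2 constant. Such bins were rich in piRNA genes: 91.3% of those in the big cluster held at least 1, against 48.5% of the big cluster bins listed for all 4 pairs. They were also poorer in G and C, with a median GC content of 28.9% against 38.4%. Listed for both N2 IPs and neither *snpc-1.3::3xflag* IP were 0 bins of the big cluster, 18 of the small cluster (0.720%), 550 elsewhere on chromosome IV (4.87%) and 5073 on the other chromosomes (6.13%). The big cluster as a whole was listed to 86.9% and 86.4% in *snpc-1.3::3xflag* worms, against 26.8% and 20.8% in N2 worms. The other chromosomes went the other way, with 29.4% and 30.8% listed in *snpc-1.3::3xflag* worms, against 44.1% and 44.3% in N2 worms, and so did chromosome IV outside the clusters (39.6% and 37.5%, against 47.2% and 46.1%). The part of library composition in the listing was not tested.

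Summed in 100 kb windows, the signal followed the outline of both clusters. All 24 tested windows of the big cluster and 18 of 23 in the small cluster were higher in *snpc-1.3::3xflag* worms (edgeR, adjusted p of at most 0.05), against a background of 43 of 661 windows (6.51%). Window log2 ratios ran from 0.18 to 1.16 in the big cluster (median 0.70) and from -0.04 to 0.54 in the small cluster (median 0.27). The highest window began at IV 16600001 (1.16 ± 0.04, SE, adjusted p = 3.04e-18, edgeR), and the highest of the small cluster at IV 5700001 (0.54 ± 0.04, SE). The 5 small cluster windows that did not pass were its first 3, with 0, 1 and 8 piRNA genes, and its last 2, with 48 each. Across windows, the log2 ratio and the number of annotated piRNA genes correlated with r = 0.88 in the big cluster (24 windows) and r = 0.90 in the small cluster (23 windows), as a description over windows of the same libraries. Outside the clusters 1 of 614 windows was higher. It adjoined the right edge of the big cluster (IV 17200001, 0.32, with 146 piRNA genes). None of the 515 windows of the other chromosomes was higher (1 at an unadjusted p under 0.05 by edgeR, 0 adjusted and 1 unadjusted by DESeq2). The 8 windows (1.21%) that were lower lay on chromosomes I, II and X with log2 ratios of -0.14 to -0.09, and their number was 48 without *snpc-1.3::3xflag* replicate 2, 5 without *snpc-1.3::3xflag* replicate 1, 3 without N2 replicate 2 and 0 with DESeq2.

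**Figure D2:**
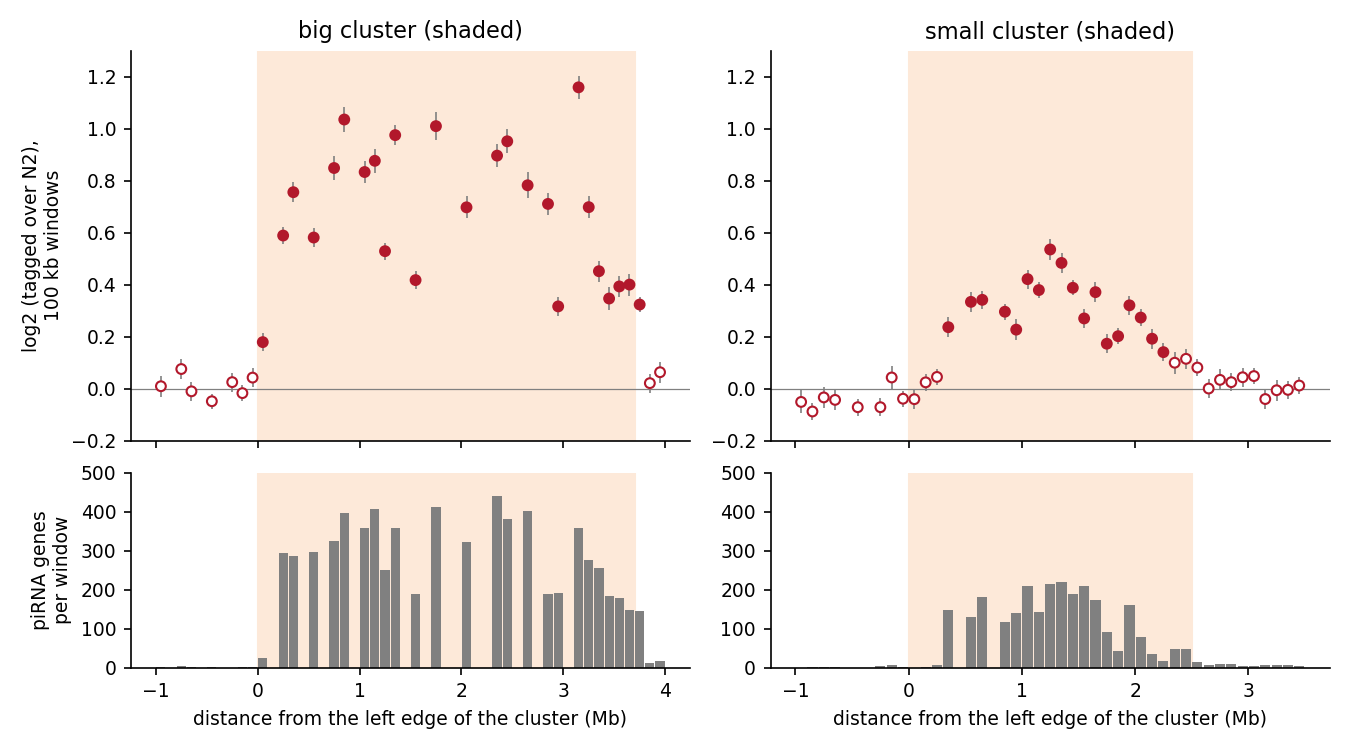
Log2 of IP over input in *snpc-1.3::3xflag* worms relative to N2 worms in 100 kb windows (upper panels, points with SE from edgeR, filled where the adjusted p was at most 0.05) and annotated piRNA genes in the same windows (lower panels), by distance from the left edge of each cluster in Mb, with the cluster shaded. Windows with fewer than 10 tested bins are not drawn. Ratios reach 1.16 in the big cluster and 0.54 in the small cluster and lie near 0 outside, except for the window at the right edge of the big cluster (0.32).

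Within the clusters the signal went up with the number of piRNA genes in a bin. In the big cluster, bins without a piRNA gene had median log2 ratios of 0.30 and 0.27 (replicates 1 and 2), bins with 1 had 0.65 and 0.70, bins with 3 had 0.88 and 1.07, and bins with 6 or more had 1.05 and 1.24. In the small cluster the same classes had 0.14 and 0.10, 0.33 and 0.31, 0.53 and 0.62, and 0.77 and 0.99. At an equal number of piRNA genes, the big cluster was thus the higher of the clusters in each of these classes and in both replicates. By the edgeR test, 251 of 260 bins with a piRNA gene and 126 of 276 without were higher in the big cluster, and 99 of 166 with and 68 of 431 without in the small cluster. Single piRNA genes outside the clusters did not share this level: bins with 1 piRNA gene had 0.06 and 0.02 elsewhere on chromosome IV (85 and 84 bins, 3 of 46 tested higher) and -0.02 and -0.03 on the other chromosomes (115 and 122 bins, 0 of 75 higher). Grouped by all annotated genes, bins of the big cluster with 0, 1, 2, and 3 or more genes had median ratios of 0.21, 0.30, 0.59 and 0.94 in replicate 1 and 0.11, 0.26, 0.56 and 1.07 in replicate 2. On the other chromosomes the same 4 classes lay between -0.05 and -0.0045 in both replicates, which shows no such order.

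Other properties of the bins moved with the same values. In the big cluster, bins with 6 or more GTTTCA matches had 1.1 and 1.35, against 0.34 and 0.26 in bins with none, while on the other chromosomes bins with 6 or more had -0.02 and -0.05 (22 bins each), against -0.04 and -0.04 with none. In the small cluster, bins with GTTTCA and no piRNA gene had 0.15 and 0.10, beside 0.14 and 0.11 in bins with neither. Bins of the big cluster with under 32% GC had 0.97 and 1.07 and those with 40% GC or more had 0.36 and 0.38. On the other chromosomes bins with under 32% GC had 0.0012 and -0.02 and those with 40% or more had -0.06 and -0.05. The separate parts of piRNA number, motif and GC content in the cluster values were not tested.

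**Figure D3:**
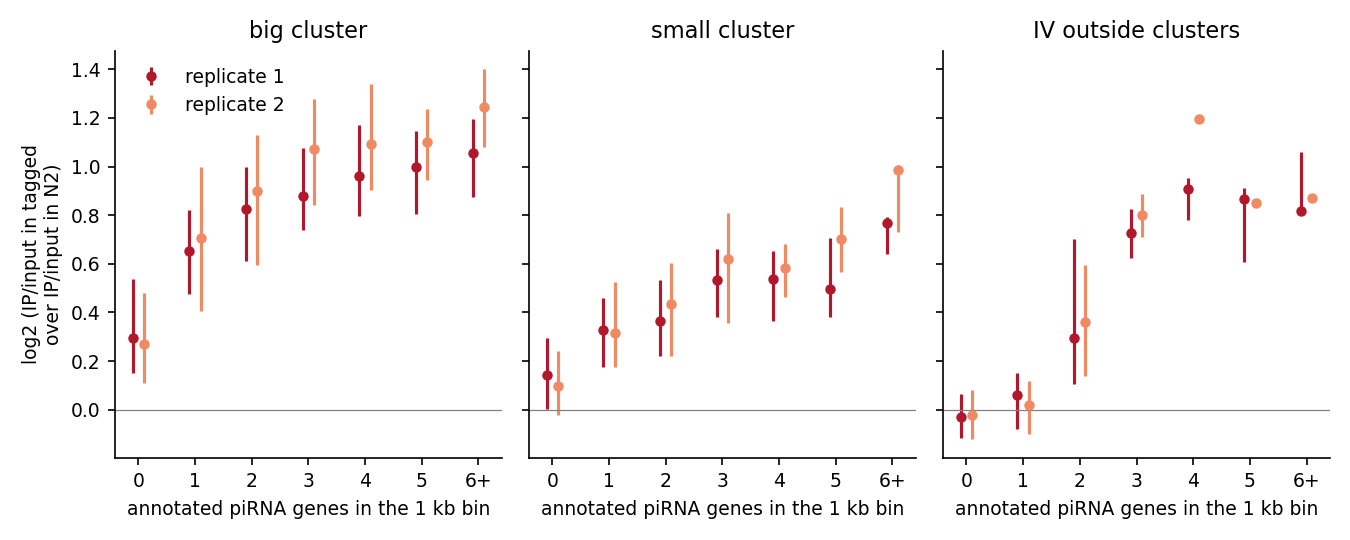
Log2 of IP over input in *snpc-1.3::3xflag* worms relative to N2 worms by number of annotated piRNA genes in the bin, for both clusters and the rest of chromosome IV. Points are medians over bins and bars quartiles, for each replicate. Medians climb from 0.30 and 0.27 without a piRNA gene to 1.05 and 1.24 with 6 or more in the big cluster, and the few bins with 2 or more outside lie mostly beyond its right edge.

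Bins listed for *snpc-1.3::3xflag* worms alone could not be ranked by ratio. The highest of them, IV 14883001 with eps-8 and 6 piRNA genes (above), had 34.7 and 36.7 CPM in the *snpc-1.3::3xflag* IPs. Among tested bins, the highest of each cluster held a tRNA gene and piRNA genes, but several of those next in rank did not hold both. IV 16382001 to 16383000, with a tRNA gene (WBGene00014561) and 21ur-3939, 21ur-5331, 21ur-9329 and 21ur-15176, had 34.7 and 34.7 CPM in the *snpc-1.3::3xflag* IPs, against 10.5 and 10.8 CPM in the N2 IPs. Its IP over input was 2.92 and 3.17 in *snpc-1.3::3xflag* worms, against 0.858 and 1.00 in N2 worms (log2 ratios 1.77 and 1.66, fitted 1.72 ± 0.14, SE, adjusted p = 1.85e-14, edgeR). Every *snpc-1.3::3xflag* library stood far above every N2 library in this bin, which was picked as the highest. Of the 4 next bins, IV 15235001 (1.70 and 1.65), 16684001 (1.53 and 1.70) and 16389001 (1.6 and 1.61) each held 1 tRNA gene with 4, 3 and 2 piRNA genes, and IV 16661001 (1.52 and 1.86) held 9 piRNA genes and no tRNA gene. In the small cluster the highest bin, IV 5967001 to 5968000, held a tRNA gene (WBGene00022903), 21ur-5229 and 21ur-3644. It had 27.2 and 24.98 CPM in the *snpc-1.3::3xflag* IPs, against 10.6 and 11.7 CPM in the N2 IPs (log2 ratios 1.3 and 1.12, adjusted p = 3.56e-11, edgeR). After it came IV 6117001 with the snoRNA gene M03D4.78 (1.26 and 1.05), IV 5334001 with a tRNA gene and 21ur-5279 (1.06 and 1.11), IV 4880001 with the snoRNA gene T08B6.64 (0.81 and 1.21) and IV 6118001 in zen-4, a kinesin gene (1.01 and 0.93).

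tRNA bins, like bins of other kinds, differed by place. All 18 tested bins with a tRNA gene in the big cluster and all 6 in the small cluster were higher in *snpc-1.3::3xflag* worms, beside 70.3% and 28.0% of all tested bins there. Of 256 tRNA bins outside the clusters none was higher or lower (edgeR, at an unadjusted p under 0.05 11 higher and 7 lower, DESeq2 0 and 0), where 0.266% of all tested bins were higher, so a count of 0 is close to that background. Among tRNA bins of the big cluster, IP over input ran from 2.18 to 4.07 (median 2.93) and from 1.97 to 4.17 (median 3.03) in *snpc-1.3::3xflag* worms, against 0.858 to 1.38 (median 1.15) and 1.00 to 1.61 (median 1.22) in N2 worms, so that no value overlapped. Over all tested bins of the big cluster the genotypes did overlap. The 5th percentile was 1.14 and 1.15 in *snpc-1.3::3xflag* worms, and the 95th was 1.33 and 1.36 in N2 worms. These are bins of the same libraries, not replicates. For tRNA bins outside the clusters, the medians were 1.17 and 1.254 in *snpc-1.3::3xflag* worms and 1.18 and 1.19 in N2 worms, and the median log2 ratios were -0.01 and 0.08. The 8 tRNA bins of the big cluster without a piRNA gene had median log2 ratios of 1.27 and 1.05 and were all higher, beside 0.31 and 0.31 in the 263 bins of that cluster with no piRNA, tRNA, snRNA or snoRNA gene, of which 115 were higher. In the small cluster 61 of 419 bins without any of these genes were higher, with medians of 0.15 and 0.11. With bins of tRNA, snRNA and snoRNA genes left out, 351 of 508 bins of the big cluster and 155 of 580 of the small cluster were higher. The 5 tested snRNA bins of the clusters were all higher, and so were 9 of 16 snoRNA bins, beside 48.0% of all tested cluster bins. By cluster, 5 of 7 snoRNA bins were higher in the big and 4 of 9 in the small cluster. The first count is near the share of all tested bins there (70.3%), and few bins stand behind either.

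**Figure D4:**
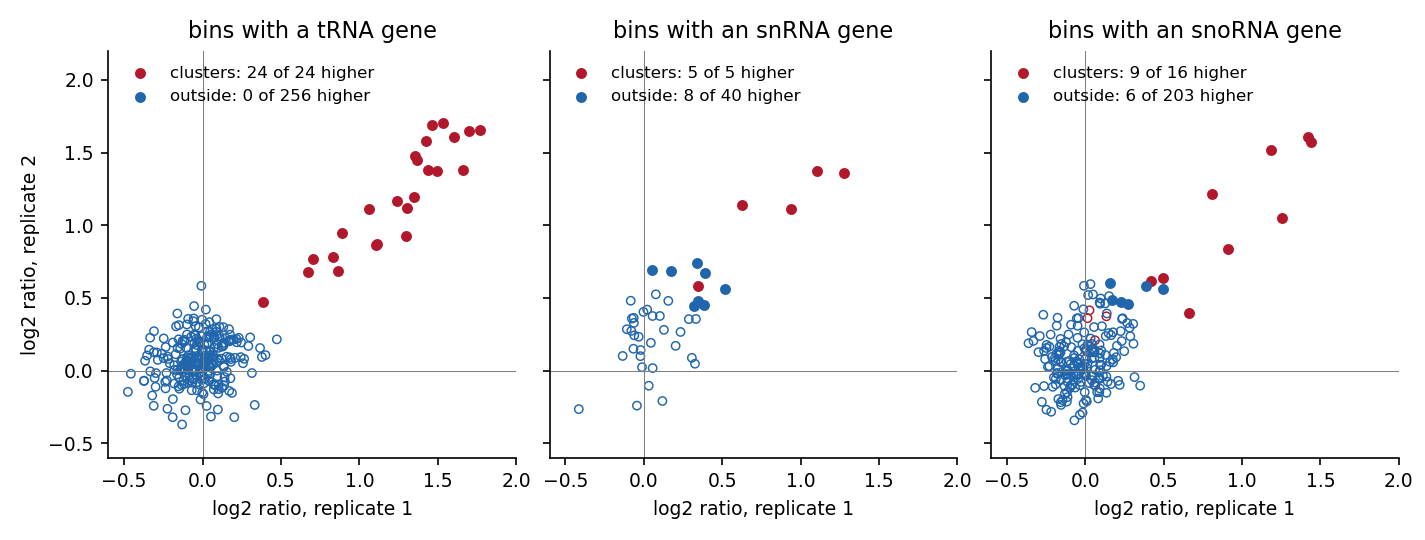
Log2 of IP over input in *snpc-1.3::3xflag* worms relative to N2 worms in replicate 1 (x axis) and replicate 2 (y axis) for tested bins that hold a tRNA, snRNA or snoRNA gene, red in the clusters and blue outside them, filled where the bin was higher by the edgeR test. tRNA bins were higher in 24 of 24 cases in the clusters and 0 of 256 outside, snRNA bins in 5 of 5 and 8 of 40, snoRNA bins in 9 of 16 and 6 of 203. Of all tested bins, 48.0% in the clusters and 0.266% outside were higher.

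The signal did not stop at the right border set for the big cluster. In the 20 kb next to it, the median log2 ratio was 0.82 and 0.87, at 20 to 40 kb 0.84 and 0.85, at 40 to 60 kb 0.23 and 0.25, and at 80 to 100 kb 0.06 and 0.06. Few bins stand behind the nearest 40 kb (10 and 3 bins, then 8 and 3). Beyond the left edge of the big cluster and both edges of the small cluster, the highest 20 kb step within 100 kb was 0.21 in replicate 1 and 0.14 in replicate 2. Of 90 tested bins beyond the right edge, 15 were higher in *snpc-1.3::3xflag* worms, beside 0.266% of all tested bins outside the clusters. A piRNA gene lay in 9 of the 15. Such genes are dense near the edge, with 17 listed bins holding one in each of the first 2 steps of 20 kb. The annotation has 175 piRNA genes in this stretch, of which 68.6% have GTTTCA in the 60 nt upstream. The highest bin outside the clusters lay here, IV 17211001 to 17212000, with 21ur-8563, 21ur-14311, 21ur-6472 and 21ur-10444. It had 23.6 and 26.8 CPM in the *snpc-1.3::3xflag* IPs, against 12.3 and 11.8 CPM in the N2 IPs, and IP over input of 2.04 and 2.29, against 1.02 and 0.999 (log2 ratios 1.00 and 1.19, adjusted p = 4.01e-10, edgeR). It was followed by IV 17233001 (0.82 and 0.97, 3 piRNA genes), IV 17228001 at npr-32, a neuropeptide receptor gene (0.87 and 0.85, 5 piRNA genes), and IV 17209001 (0.82 and 0.87, 6 piRNA genes). The farthest of the stretch were IV 17278001 at the heat shock protein gene hsp-1 (0.50 and 0.76) and IV 17461001 (0.52 and 0.63), both without a piRNA gene. DESeq2 called 7 of these 15 bins. A further 3 higher bins lay within 100 kb of other edges, in cogc-2 (IV 7039001, 0.63 and 0.33), deb-1 (IV 7085001, 0.45 and 0.29) and uso-1 (IV 13453001, 0.16 and 0.54).

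**Figure D5:**
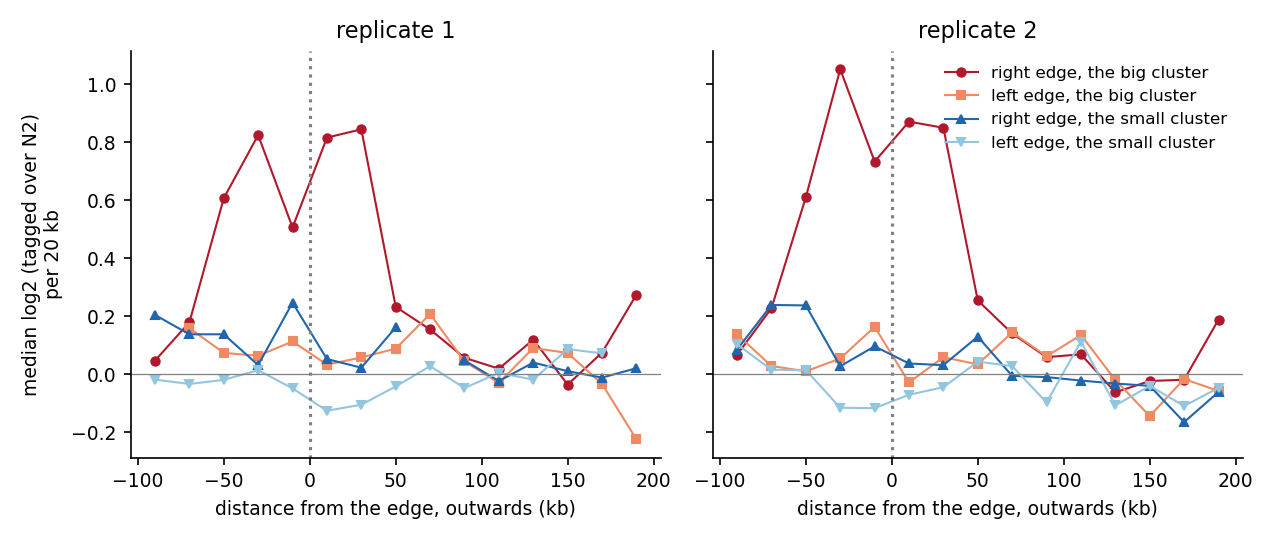
Median log2 of IP over input in *snpc-1.3::3xflag* worms relative to N2 worms in steps of 20 kb across the 4 cluster edges, by distance from the edge in kb (negative inside the cluster, positive outside), for each replicate. Beyond the right edge of the big cluster the medians stay at 0.82 to 0.87 for 40 kb and come down to 0.06 at 80 to 100 kb. The step at 180 to 200 kb rests on 5 bins in replicate 1 and 1 bin in replicate 2.

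Away from the edges 25 bins were higher in *snpc-1.3::3xflag* worms, and 8 of these held an snRNA gene and 6 a snoRNA gene. Bins with an snRNA gene outside the clusters were higher in 8 of 40 tested (20.0%), against the background of 0.266% over tested bins outside the clusters, and none was lower (edgeR, 17 higher and 1 lower at an unadjusted p under 0.05). Over these 40 bins the median IP over input was 1.36 and 1.52 in *snpc-1.3::3xflag* worms, against 1.24 and 1.22 in N2 worms. Over all listed snRNA bins outside the clusters, the median log2 ratio was 0.05 in replicate 1 (48 bins) and 0.33 in replicate 2 (46 bins), mean 0.19 ± 0.19 (SD, n = 2), against medians of -0.04 and -0.03 over all bins outside the clusters. The exact two-sided permutation test of the 4 libraries gave p = 0.333, the smallest value possible. The 2 replicates thus differed in size, and the calls depended on the libraries: without *snpc-1.3::3xflag* replicate 2 none of the 40 passed and without N2 replicate 1 or 2 there were 4 and 3, while without *snpc-1.3::3xflag* replicate 1 there were 10. DESeq2 called 0 of the 40 (6 higher at an unadjusted p under 0.05).

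Genes of SL2 spliced leader RNAs (sls-2), which are joined to the 5′ ends of downstream messages of operons, supplied 4 of the 8 bins, out of 12 tested with an sls-2 gene outside the clusters. The bin of sls-2.5 (III 7140001) had 13.8 and 16.3 CPM in the *snpc-1.3::3xflag* IPs, against 10.9 and 12.6 CPM in the N2 IPs, and its IP over input was 1.45 and 1.72, against 1.01 and 1.17 (log2 ratios 0.52 and 0.56, adjusted p = 8.32e-05, edgeR). The bin of sls-2.14 (III 11090001) had IP over input of 1.6 and 1.99 in *snpc-1.3::3xflag* worms, against 1.26 and 1.19 in N2 worms (0.34 and 0.74, adjusted p = 0.00193, edgeR). The bins of sls-2.8 (III 12250001, 0.39 and 0.45) and sls-2.15 (III 11091001, 0.32 and 0.44) lay somewhat lower. The bins of sls-2.14 and sls-2.15 adjoin and can share reads. Most of the sequence printed upstream of sls-2.15 lies in the bin of sls-2.14, so these bins are not separate sites. In all 4 bins both *snpc-1.3::3xflag* libraries stood above both N2 libraries in IP over input, a description of bins chosen by a test on the same counts. The other 4 bins held genes annotated as snRNA: ZK897.3 (IV 12786001, 0.39 and 0.67), C53D6.12 (IV 9001001, 0.17 and 0.68), F42C5.12 (IV 7316001, 0.35 and 0.48) and F38E11.11 (IV 9444001, 0.05 and 0.69). For F38E11.11, IP over input was 1.64 and 2.17 in *snpc-1.3::3xflag* worms, against 1.58 and 1.35 in N2 worms, so its call rests on replicate 2. No bin of the SL1 genes (sls-1) outside the clusters entered the test, and neither of the 2 tested bins of SmY RNA genes (smy) outside the clusters passed. Within the big cluster, the bin of smy-10 (IV 13601001) had 24.1 and 26.7 CPM in the *snpc-1.3::3xflag* IPs, against 11.64 and 10.79 CPM in the N2 IPs (log2 ratios 1.1 and 1.37, adjusted p = 3.99e-13, edgeR).

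snoRNA genes, whose products guide the modification of ribosomal RNA, were in 6 higher bins of 203 tested outside the clusters, where 0.266% of all tested bins were higher, with median log2 ratios of -0.02 and 0.06 over the 203 bins. The bin of T26A8.6 (IV 8428001) had 16.6 and 20.8 CPM in the *snpc-1.3::3xflag* IPs, against 12.4 and 13.7 CPM in the N2 IPs (log2 ratios 0.49 and 0.56, adjusted p = 8.01e-04, edgeR). C16D9.11 (V 8228001) shares its bin with the gene rol-3 and had 0.39 and 0.58, and the adjoining bin of rol-3, which holds most of the sequence upstream of C16D9.11, had 0.15 and 0.75. The others were the bins of F54F11.6 (II 13521001, 0.16 and 0.60), C08D8.3 (V 8349001, 0.23 and 0.47) and Y55F3BR.17 (IV 867001, 0.17 and 0.48), and V 11175001 (0.27 and 0.45). V 11175001 held gpa-1, T19C4.11 and T19C4.17, with 1 annotated snoRNA gene. DESeq2 called 0 of the 203 (2 higher at an unadjusted p under 0.05), and edgeR called 0 without *snpc-1.3::3xflag* replicate 2, 12 without *snpc-1.3::3xflag* replicate 1, 2 without N2 replicate 1 and 2 without N2 replicate 2. In these 6 bins the lower of the 2 *snpc-1.3::3xflag* values of IP over input was above both N2 values. The bins were chosen by a test on the same counts, so this is a description and adds no support.

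The string in capitals above was commoner upstream of snRNA genes than of other genes. GCGNAACC occurred in the 80 nt upstream, on either strand, of 35.7% of 129 snRNA genes, 6.94% of 346 snoRNA genes, 0.490% of 612 tRNA genes and 0.235% of 19973 protein-coding genes. The longer string, with TGTC 7 nt after GCGNAACC, occurred upstream of 24.0% of snRNA, 5.78% of snoRNA and 0.0150% of protein-coding genes. Of tested snRNA bins outside the clusters, 8 of 23 with GCGNAACC upstream of the gene were higher (median log2 ratios 0.16 and 0.38) and 0 of 15 without (0.03 and 0.19). For snoRNA bins, 3 of 16 with it were higher (0.13 and 0.36) and 3 of 167 without (-0.04 and 0.05). Genes were assigned to the bin of their 5′ end, which leaves out 2 of the 40 snRNA bins and 20 of the 203 snoRNA bins that hold only a later part of a gene. The string was chosen from sequences of higher bins, so these counts are a description and carry no test. Over the genome the longer string occurred on either strand in 682 bins (0.680% of all). Outside the clusters 158 of them were tested and 8 were higher, where 0.266% of all tested bins were higher. All 8 hold sequence printed above, from which the string was taken, so the search added no higher bin there. Medians were -0.01 and -0.02 over the listed bins, and most bins with the string did not pass the test. Inside the clusters 25 of 28 were higher, beside 48.0% of all tested cluster bins. Most cluster bins with the string lie in the big cluster (81, against 9 in the small cluster), where 70.3% of all tested bins were higher. One of the 8 outside held no annotated gene. IV 991001 to 992000 lies 549 bp from egrh-2 and 283 bp from lep-2 and had 19.6 and 21.9 CPM in the *snpc-1.3::3xflag* IPs, against 11.1 and 12.5 CPM in the N2 IPs. IP over input was 1.85 and 2.11 in *snpc-1.3::3xflag* worms, against 1.13 and 1.29 in N2 worms (log2 ratios 0.71 and 0.71, adjusted p = 4.67e-07, edgeR). It was the highest bin away from the clusters and their edges, and the one such bin that DESeq2 also called (adjusted p = 0.0369, DESeq2).

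The remaining 10 higher bins held neither snRNA nor snoRNA genes. They lay at the ribosomal protein gene rpl-12 (IV 13240001, 0.38 and 0.56), D2024.18 (IV 7253001, 0.15 and 0.74), rol-3 (above), the vacuolar ATPase gene vha-18 (V 8413001, 0.15 and 0.61), T10B5.4 (V 1871001, 0.15 and 0.64), the RNA interference gene rde-8 (IV 7103001, 0.35 and 0.38), the proteasome gene rpn-6.2 (III 9001001, 0.22 and 0.48), K11H12.8 (IV 655001, 0.41 and 0.31), pam-1 and oef-1 (IV 7548001, 0.18 and 0.53) and the histone acetyltransferase gene hat-1 (III 10407001, 0.34 and 0.35). Lists of other genes showed no bin past the test: 0 of 32 bins of SNAPc and piRNA factor genes (edgeR, 1 lower at an unadjusted p under 0.05), 0 of 28 of histone genes (1 higher), 0 of 5 of ribosomal RNA genes (0) and the 1 tested bin of the major sperm protein genes (0), and DESeq2 called 0 of each. At 0.266% of tested bins outside the clusters, lists of this size would hold few or no higher bins, so these counts do not set the lists apart. The 14 mitochondrial bins moved as a block and in opposite directions in the replicates (median log2 ratio 0.13 and -0.37), and none passed the test by either tool.

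Lower in *snpc-1.3::3xflag* worms were 27 bins, 2 on chromosome IV outside the clusters and 25 on other chromosomes, with fitted log2 ratios of -0.43 to -0.34. Their median IP over input was 1.03 and 1.1 in *snpc-1.3::3xflag* worms, against 1.39 and 1.38 in N2 worms, where the tested bins outside the clusters had medians of 1.11 and 1.11 in N2 worms. IP over input in *snpc-1.3::3xflag* worms was under 1 in 12 of the 27 bins in replicate 1 and in 6 in replicate 2, the same 6 bins being under 1 in both. By the mean of the 2 replicate ratios, the 5 lowest lay at ftt-2, a gene of a 14-3-3 protein (X 11605001, -0.60 and -0.26), at the glyceraldehyde-3-phosphate dehydrogenase genes gpd-2 and gpd-3 (X 3113001, -0.53 and -0.34), in an intergenic bin (IV 8795001, -0.61 and -0.24), in another (X 11001, -0.35 and -0.49) and at the phosphoenolpyruvate carboxykinase gene pck-1 (III 65001, -0.51 and -0.31). At gpd-2 and gpd-3, IP over input was 1.34 and 1.41 in *snpc-1.3::3xflag* worms, against 1.92 and 1.78 in N2 worms. The bin of the muscle myosin gene unc-54 was not among these 5 but had the second lowest fitted ratio, and others lay at collagen genes (col-95 and col-96). DESeq2 called 0 of the 27, and the count dropped to 7 without *snpc-1.3::3xflag* replicate 1 and 10 without N2 replicate 2.

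Small RNA libraries of the same series gave a readout that the ChIP rule did not use, the change of each piRNA in snpc-1.3(lof) worms against wild-type worms at 48 hr (2 against 3 libraries). Of 8332 piRNAs of chromosome IV tested, 3176 were lower (38.1%) and 3348 higher (40.2%) in snpc-1.3(lof) worms (edgeR, adjusted p of at most 0.05 and a log2 change of at least 0.26 in size). Libraries were scaled over these piRNAs alone, so lower and higher are relative to the other piRNAs and not absolute changes. Cluster bins with at least 1 lower piRNA had median ChIP log2 ratios of 0.85 (441 bins) and 0.94 (280 bins), against 0.74 (309 bins) and 0.78 (195 bins) in cluster bins whose piRNAs included none that was lower. The difference was 0.14 ± 0.03 (SD, n = 2 replicates), and 0.09 over bins with exactly 1 piRNA gene. It was 0.17 in the big cluster and 0.07 in the small cluster. Between the clusters the order was the other way. The small cluster, with the lower ChIP ratios, had 617 lower piRNAs of 1307 tested (median log2 change -0.79). The big cluster had 2474 of 6868 (median 0.52). Bins with at least 1 piRNA that was higher in snpc-1.3(lof) worms exceeded the others by 0.06. Bins with more piRNA genes are more likely to hold one of either kind, and the 2 ChIP replicates share the small RNA calls, so the difference is given without a test.

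piRNAs that the study examined singly all lay in the big cluster. Its methods name 21ur-4817 among the female piRNAs, while its list of probes has 21ur-4807 and not 21ur-4817, so both are given. The bin of 21ur-1258 (which fell by 4.06 on the log2 scale in snpc-1.3(lof) worms) had 29.2 and 29.8 CPM in the *snpc-1.3::3xflag* IPs, against 10.8 CPM in N2 replicate 1, and was not listed in N2 replicate 2 (log2 ratio 1.48 in replicate 1). The bin of 21ur-3142 (which fell by 3.09) had 19.8 and 23.7 CPM in the *snpc-1.3::3xflag* IPs, against 10.5 CPM in N2 replicate 1 (0.97). The bins of 21ur-3766 (which fell by 1.92) and 21ur-4807 (which fell by 2.96), with 18.5 and 19.5 CPM and with 14.2 and 16.0 CPM in the *snpc-1.3::3xflag* IPs, were listed in neither N2 library. The same held for bins of piRNAs that were higher in snpc-1.3(lof) worms, 21ur-2502 (by 1.72, 20.8 and 21.5 CPM) and 21ur-4817 (by 1.77, 18.5 and 19.5 CPM). The bin of 21ur-1848 (higher by 1.9) was listed in no library.

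The ChIP-qPCR amplicons of the study were placed on the genome by their primers. The big cluster amplicon (IV 15396765 to 15396876) lies in the bin of 21ur-2502, at least 1.99 and 2.05 times the N2 constant. The small cluster amplicon (IV 5950163 to 5950258) lies in a bin with 20.2 and 21.9 CPM in the *snpc-1.3::3xflag* IPs, against 10.6 and 10.9 CPM in the N2 IPs (log2 ratios 0.93 and 0.93, adjusted p = 8.46e-10, edgeR). The intergenic amplicon (IV 8553721 to 8553813) lies in a bin that was listed in N2 replicate 1 alone (10.8 CPM). The 3 bins of snpc-1.3 itself (V 5437084 to 5439168) were listed in N2 libraries and in no *snpc-1.3::3xflag* library, with 10.6 to 12.3 CPM, so no IP coverage above the constant was listed for *snpc-1.3::3xflag* worms at the tagged gene.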

How the data were processed

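Per the labels and the methods of the study, chromatin of L4 worms was fixed with 2.6% formaldehyde, 10 µg was precipitated with 2 µg of Flag antibody, and IP and input were sequenced as single reads of 50 bp. The authors trimmed reads with Trim Galore (version 0.5.0), aligned them to WBcel235 with Bowtie2 (2.3.4.2), removed duplicates with Picard (2.22.1), kept a mapping quality of at least 30 with SAMtools (1.9), extended reads to 200 bp and deposited counts of IP and input per 1 kb bin. The deposited CPM values are the count plus 1 over a library total, which was recovered from them. In the files, the deposited signal equalled the CPM of the IP minus a constant of the library, and bins at or under 0 are not listed. The methods state a minimum set by the input in piRNA-depleted bins of chromosome IV, and the constant is taken to be that minimum, which was not tested. Columns of fold change, scores and the authors' sex classes of piRNAs were not used. The numbers of piRNAs and snRNAs per bin equalled those of the annotation in 100% of bins.

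Counts in bins listed for all 4 pairs, with at least 20 counts in each input, were fitted with edgeR (4.0.16, R 4.3.3) with a block for each pair of IP and input, IP, and IP by genotype, with the recovered totals as library sizes. Bins were also summed in 100 kb windows with at least 10 tested bins. Medians by region, gene number, snRNA, piRNA, motif and GC class were taken per replicate, and exact permutation tests used one value per library (scipy 1.17.1). Small RNA counts, which the authors made with Bowtie and featureCounts and deposited as raw counts, were fitted over 11 libraries with edgeR (TMM). The model was tested on simulated data for the comparison of *snpc-1.3::3xflag* over N2 (17306 bins): it called 50 of 50 bins changed 2-fold, 47 of 50 changed 1.5-fold and 9 of 50 changed 1.25-fold, and 7 unchanged bins. All simulated bins had a spread near that of counting alone, close to the fitted common dispersion (9.77e-05). The *snpc-1.3::3xflag* IPs varied more in the big cluster (chi-square per degree of freedom 2.19), and recovery at such a spread was not tested.

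On the chromosomes other than IV, replicates of a genotype varied about as much as counting predicts (chi-square per degree of freedom 0.80 to 1.03). Libraries of different genotypes ranged from 0.79 to 1.22. Among their inputs, same-numbered libraries had 0.82 and 0.79, and the others 1.22 and 0.86. No library was therefore taken as deposited more than once. The named bins are the 5 highest of each cluster and the 5 lowest lower bins among those that passed, bins of piRNAs and amplicons of the study, and fixed gene lists. The members and lists were chosen with earlier results of these data known. Alternatives were TMM factors, DESeq2 (1.42.0), IP without input, no block for the pair, a block for the replicate number, other input minima, other fold and window sizes, and leaving out each library.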

Additional observations from a re-analysis of the deposited data

How the results depend on the processing

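The directions of the comparisons of regions were the same under each alternative run, and no value reversed. Leaving out 1 replicate gave 0.36 to 0.45 for inside minus outside the clusters, -0.51 to -0.48 for small minus big, 0.05 to 0.33 for snRNA bins, and 0.12 to 0.16 for bins by change of their piRNAs, which was 0.093 over bins with exactly 1 piRNA gene. The 614 changed bins became 288 with DESeq2 (487 to 572 without 1 library), and the 544 higher cluster bins 280 (434 to 506). DESeq2 gave a median unadjusted p of 0.742 over bins outside the clusters, against 0.504 with edgeR, with 0 lower bins at an unadjusted p under 0.05. The 43 higher bins outside became 8 with DESeq2 and 14 to 59 without 1 library (14 without *snpc-1.3::3xflag* replicate 2, 25 without N2 replicate 1, 22 without N2 replicate 2), and TMM factors gave 62. The 27 lower bins became 16 with TMM factors, 0 with DESeq2, 48 with IP alone and 7 to 28 without 1 library. Sites outside with a log2 ratio of at least 1 in both replicates numbered 1 where nothing was added to counts, 8 at 0.58 and 2 to 3 in a single replicate. Bins listed with the tag alone numbered 1659 instead of 3360 at 1.5 times the N2 constant (1642 instead of 2666 inside, 17 instead of 694 outside), and 8754 to 8832 in a single replicate (3222 to 3503 inside, 5329 to 5532 outside).

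The correlation of same-numbered deviations in IP over input was 0.07 (0.22 for the inputs alone). The numbers mark no shared batch in the labels and there are only 2 pairs, so they were not taken to pair the samples, although the log2 ratio of the genotypes is formed within a number. A block for the replicate number gave 619 changed bins and 43 higher bins outside, and a fit with no such block and no block for the pair of IP and input 598 and 39. For windows it raised the called number from 51 to 81, with 3 higher and 35 lower outside the clusters. Lower windows numbered 0 with TMM factors, DESeq2 or no block, 29 with IP alone, 4 at 50 kb and 3 to 48 without 1 library, where all called windows ran from 45 to 93 (93 without *snpc-1.3::3xflag* replicate 2). Higher windows outside numbered 3 with TMM factors, 2 with IP alone, 2 at 50 kb and 1 to 3 without 1 library. Windows higher inside the clusters ran from 41 to 44 without 1 library. The causes were not tested. Depth limits single bins: at a spread near that of counting alone, 94% of simulated 1.5-fold changes were called, and smaller ones less often.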
